A study of Mus musculus with 8 samples.

Results

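The genes described here copy the genome and then divide it: subunits of the replicative helicase, suppliers of nucleotides, cyclins and their kinases, and enzymes and checkpoint proteins of mitosis. They were 35 genes named by function. A gene was represented by the probe set annotated to it alone with the highest mean over all 8 arrays. Of the 35 genes, 34 had such a probe set, among 12393 genes in all, and Ccnb1 had none and was left out. No filter on low values was used for the values reported here, so all 34 entered that fit. The 34 genes had 66 probe sets between them.

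RNA came from primitive erythroid precursors, nucleated cells of the yolk sac that become the first red cells, cut by laser from frozen sections of mouse embryos at embryonic day 9.5. One group of 4 arrays was labelled KLF2-/- (replicates 11, 12, 13 and 14) and the other was wild type FVB/N (replicates 3, 5, 7 and 9). Each replicate pooled 2 to 4 yolk sacs of 2 litters, cut at 8 µm. The knockout pools used 30 to 80 slides, 3600 to 4400 cells and 10 to 20 ng of RNA, and the wild-type pools 12 to 50 slides and 10 to 39 ng, all amplified in 2 cycles. The labels do not name the strain of the KLF2 line, so genotype and strain cannot be told apart, and they disagree on whether the dams carried 1 or 2 mutant alleles. The replicates are labelled biological. The comparison asks which genes change in these cells without KLF2, a zinc finger transcription factor best known from endothelium and from T cells, where it holds cells in quiescence.

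A dividing cell loads a ring of 6 MCM proteins onto each replication origin, then fires the origins when the cyclin-dependent kinases (CDKs) become active, and later condenses and separates the copied chromosomes. D-type and E-type cyclins drive entry into replication, and A-type and B-type cyclins drive its completion and mitosis. Primitive erythroid cells enter the circulation while still dividing and stop dividing as they mature, so genes of this kind are known to be active in them at this stage.

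The labels were checked before the genes were compared. The targeted gene, Klf2, had 5.38, 5.77, 7.15 and 5.89 on the log2 scale across knockout arrays 11, 12, 13 and 14, against 5.18, 5.28, 4.97 and 5.70 for wild type (exact permutation p = 0.0571), so its signal was not reduced. The sources used here do not say whether its only probe set falls inside the deletion, which leaves the labels unchecked, and groups go by their labels throughout. The median level of 9 defining red cell markers lay at percentile 97.9 of all genes. Their summed linear signal ran from 38480.5 to 47714 for the knockout arrays, against 40676 to 46063 for wild type, with a median log2 difference of -0.03. That sum is carried by the brightest markers, such as Hbb-bh1 (14.01 to 14.17 on the log2 scale over all arrays). Dimmer ones varied more, Alas2 from 7.54 to 10.58 and Klf1 from 8.52 to 10.73. Markers of other yolk sac cells gave signal as well, at unlike levels. Their median levels lay at percentile 93.2 of all genes for visceral endoderm, 92.8 for mesenchyme, 56.9 for endothelium and 50.0 for macrophages. No detection calls were available to show which were present. The summed linear signal of 12 visceral endoderm markers ran from 5461 to 36679.7 for the knockout arrays, against 21675 to 28731 for wild type. In the same order it was 553 to 1161 against 518 to 789 for 10 endothelial markers and 4397 to 17286 against 6338 to 12905 for 10 mesenchyme markers. For 8 macrophage markers it was 549 to 1199.8 for the knockout arrays, against 527 to 604 for wild type. The median log2 differences of these 4 lists were -0.45, 0.36, 0.32 and 0.34. The lowest marker value was 3.59 on the log2 scale. The lowest value of any probe set lay between 2.47 and 2.60 in each array, so a value above 0 does not show that a marker was present. The part of these cells in the results below was not tested. In such samples fewer cells of a type and less RNA per cell cannot be told apart.

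Promoters of 5 of the genes are shown because these genes had the smallest p-values (Cdk2, Ccnb2 and Aurka) or were among those that varied closely with other genes of the group over the arrays (Mcm5 and Plk1). The sequences are RefSeq's for GRCm38.p6, the 250 bases before the start site, written 5′ to 3′ on the strand of the gene. Capitals mark matches on either strand to 3 motifs known from cell cycle promoters. These were the E2F site (TTTCGCGC, TTTGGCGC, TTTCCCGC or TTTGCCGC), the cell cycle homology region or CHR (TTTGAA or TTTAAA) and the CCAAT box (CCAAT). The windows lie at chr8:75109259-75109508, plus strand (Mcm5), chr7:122159185-122159434, plus strand (Plk1), chr10:128705052-128705301, minus strand (Cdk2), chr9:70421555-70421804, minus strand (Ccnb2) and chr2:172370571-172370820, minus strand (Aurka).
Mcm5: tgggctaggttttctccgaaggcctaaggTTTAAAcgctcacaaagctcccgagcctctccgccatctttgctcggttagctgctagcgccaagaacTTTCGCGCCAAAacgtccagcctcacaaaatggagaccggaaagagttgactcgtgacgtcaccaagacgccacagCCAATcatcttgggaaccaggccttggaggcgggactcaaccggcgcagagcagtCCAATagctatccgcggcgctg
Plk1: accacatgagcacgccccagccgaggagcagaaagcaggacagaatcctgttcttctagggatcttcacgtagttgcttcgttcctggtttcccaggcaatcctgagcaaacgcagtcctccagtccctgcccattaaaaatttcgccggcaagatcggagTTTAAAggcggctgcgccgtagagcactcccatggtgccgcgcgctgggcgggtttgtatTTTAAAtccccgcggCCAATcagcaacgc
Cdk2: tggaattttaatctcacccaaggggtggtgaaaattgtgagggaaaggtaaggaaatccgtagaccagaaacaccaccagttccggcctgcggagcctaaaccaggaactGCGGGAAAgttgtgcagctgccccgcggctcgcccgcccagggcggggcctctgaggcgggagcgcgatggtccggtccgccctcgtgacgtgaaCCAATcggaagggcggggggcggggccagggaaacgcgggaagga
Ccnb2: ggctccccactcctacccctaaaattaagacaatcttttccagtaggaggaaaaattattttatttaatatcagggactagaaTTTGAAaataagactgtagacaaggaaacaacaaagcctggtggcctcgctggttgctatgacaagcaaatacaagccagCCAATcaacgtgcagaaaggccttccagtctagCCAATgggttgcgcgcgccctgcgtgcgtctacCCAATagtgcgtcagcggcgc
Aurka: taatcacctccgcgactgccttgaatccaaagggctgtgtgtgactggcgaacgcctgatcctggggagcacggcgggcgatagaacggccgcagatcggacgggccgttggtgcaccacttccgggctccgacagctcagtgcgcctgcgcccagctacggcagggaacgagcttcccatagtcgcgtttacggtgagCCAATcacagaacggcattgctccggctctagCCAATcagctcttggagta
The Mcm5 window held 2 overlapping E2F matches, TTTCGCGC and GCGCCAAA, and the Cdk2 window held 1, GCGGGAAA. The Ccnb2, Plk1 and Aurka windows held none, while Ccnb2 had 3 CCAAT boxes and a CHR match, Aurka 2 CCAAT boxes and Plk1 a CCAAT box with 2 CHR matches.

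Over windows of 300 bases, which reach 50 bases past the start site, 28 of the 34 genes had a promoter in the RefSeq table, with 30 windows in all. Mcm4, Ccna2, Ccnd1, Ccnd2, Ccne2 and Aurkb had none. An E2F match stood in 8 of the 30 windows (26.7%), against 2.26% of all 32851 windows of that length. These belonged to Mcm3, Mcm5, Mcm6, Mcm7, Cdc6, Cdc25a, Cdk1 and Cdk2. A CCAAT box stood in 22 windows (73.3%, against 37.4% of all windows) and a CHR match in 14 (46.7%, against 27.6%). CACCC, the core of the sites that KLF proteins bind, was in 17 windows (56.7%, against 57.5% of all windows). A match is a run of letters and was not tested as a site.

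No gene of the group passed the test. By limma, 0 of the 34 genes had an adjusted p under 0.05, as had 0 of all 12393 genes (0.0%), and the lowest adjusted p among the 34 was 0.905. At an unadjusted p under 0.05 there were 3, all higher in the arrays labelled knockout. They were Cdk2, Ccnb2 and Aurka, 8.82% of the 34 where 4.8% of all genes reached that limit (3.33% higher and 1.47% lower). The groups overlapped at every one of the 34 genes, while 2.61% of all genes had groups that did not overlap (1.55% higher and 1.07% lower in knockout). Of the 34 differences, 19 were positive and 15 negative, with a median of 0.11 on the log2 scale, against a median of 0.02 for all genes. None reached 2-fold.

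**Figure D1:**
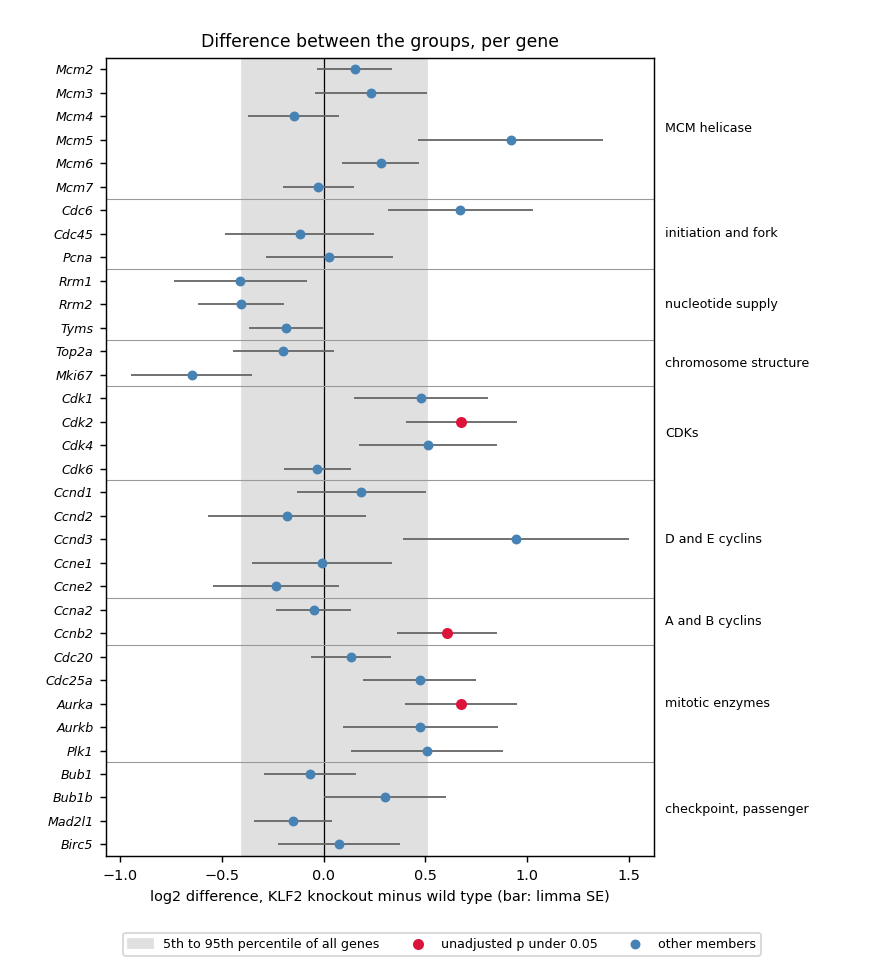
Difference between the groups for each of the 34 genes, as log2 knockout minus wild type, with limma standard errors as bars (4 arrays per group) and the 5th to 95th percentile of all 12393 genes shaded (-0.40 to 0.51). Cdk2, Ccnb2 and Aurka, in red, had an unadjusted p under 0.05, and Ccnd3 and Mcm5 lay farthest to the right with wide bars.

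Mcm2 to Mcm7 encode the 6 subunits of the replicative helicase, and are given in turn, each by its brightest probe set. Mcm5 measured 8.23, 8.04, 6.57 and 7.23 on the log2 scale across knockout arrays 11, 12, 13 and 14, against 5.78, 6.12, 7.12 and 7.38 across wild-type arrays 3, 5, 7 and 9, the order used below. Wild-type arrays 3 and 5 were the lowest of all 8, while knockout array 13 lay below wild-type arrays 7 and 9. The group means were 7.52 ± 0.77 and 6.60 ± 0.77 (SD, n = 4 each), a difference of 0.92 (SE 0.45, limma adjusted p = 0.905). Without wild-type arrays 3 and 5 the difference was 0.27, and without knockout arrays 13 and 14 it was 1.54.

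Mcm3 was at 8.02, 8.23, 7.09 and 7.67 in the arrays labelled knockout and 7.32, 7.12, 7.66 and 7.98 in wild type. Mcm2 was at 9.24, 9.60, 9.44 and 9.73 against 9.37, 9.005, 9.30 and 9.72. Both had overlapping groups and small differences, of 0.23 (SE 0.28) and 0.15 (SE 0.18). Mcm6 measured 9.58, 9.30, 9.63 and 10.05 in the arrays labelled knockout and 9.55, 9.36, 9.46 and 9.06 in wild type, with the highest value in knockout array 14. Mcm4 measured 11.16, 10.57, 10.34 and 11.21 against 11.10, 11.07, 11.02 and 10.66, and Mcm7 10.43, 10.93, 10.44 and 10.38 against 10.56, 10.27, 10.70 and 10.75. Differences were 0.28 (SE 0.19) for Mcm6, -0.15 (SE 0.22) for Mcm4 and -0.03 (SE 0.17) for Mcm7. The median of the 6 was 0.19.

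Of the genes that start replication and hold the fork, Cdc6, which helps load the helicase, differed most. It was at 8.001 ± 0.73 against 7.33 ± 0.43 (SD, n = 4 each), a difference of 0.67 (SE 0.36, limma adjusted p = 0.905), with 8.87 in knockout array 14 and 7.94 in wild-type array 9. Pcna, the sliding clamp of the polymerases, averaged 10.44 ± 0.54 and 10.41 ± 0.48. Cdc45, an activator of the helicase, measured 5.63, 5.40, 4.87 and 5.43 in the arrays labelled knockout and 4.70, 5.005, 6.51 and 5.59 in wild type. Its 2 extremes were both wild type, arrays 3 and 7.

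By their brightest probe sets, genes of nucleotide supply had lower means in the arrays labelled knockout. Each also had a dimmer probe set with a positive difference, of 0.35 for Rrm1, 0.10 for Rrm2 and up to 0.12 for Tyms. Another dimmer probe set of Rrm2 was at -0.72. Rrm1, the large subunit of ribonucleotide reductase, was at 9.42, 9.22, 7.95 and 9.15, against 9.10, 9.22, 9.91 and 9.16 in wild type. The lowest and the highest value came from 1 array each, knockout array 13 and wild-type array 7, with the others between 9.10 and 9.42. Rrm2, its small subunit, was at 10.40 ± 0.23 against 10.81 ± 0.39 (SD, n = 4 each), a difference of -0.41 (SE 0.21, limma adjusted p = 0.905). Tyms, thymidylate synthase, was dim at 3.34, 3.39, 3.77 and 4.00 against 3.86, 4.01, 3.76 and 3.601, percentile 10.9 of all genes. The files hold no detection call to set that level against. A brighter probe set shared by Tyms and its pseudogene averaged 8.59 ± 0.45 and 8.83 ± 0.40, and was not used for the gene.

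Top2a, the topoisomerase that untangles copied chromosomes, and Mki67, which encodes the Ki-67 protein of the mitotic chromosome surface, are common markers of dividing cells. Mki67 measured 10.72, 10.36, 9.55 and 10.89 in the arrays labelled knockout and 10.82, 11.21, 11.41 and 10.66 in wild type. It was the most negative of the 34 differences, at -0.65 (SE 0.30, limma adjusted p = 0.905, exact permutation p = 0.143), with knockout array 13 below the other 7. Without that array it was -0.37. Top2a differed by -0.20 (SE 0.25), and knockout array 13 held its lowest value too, 9.31.

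**Figure D2:**
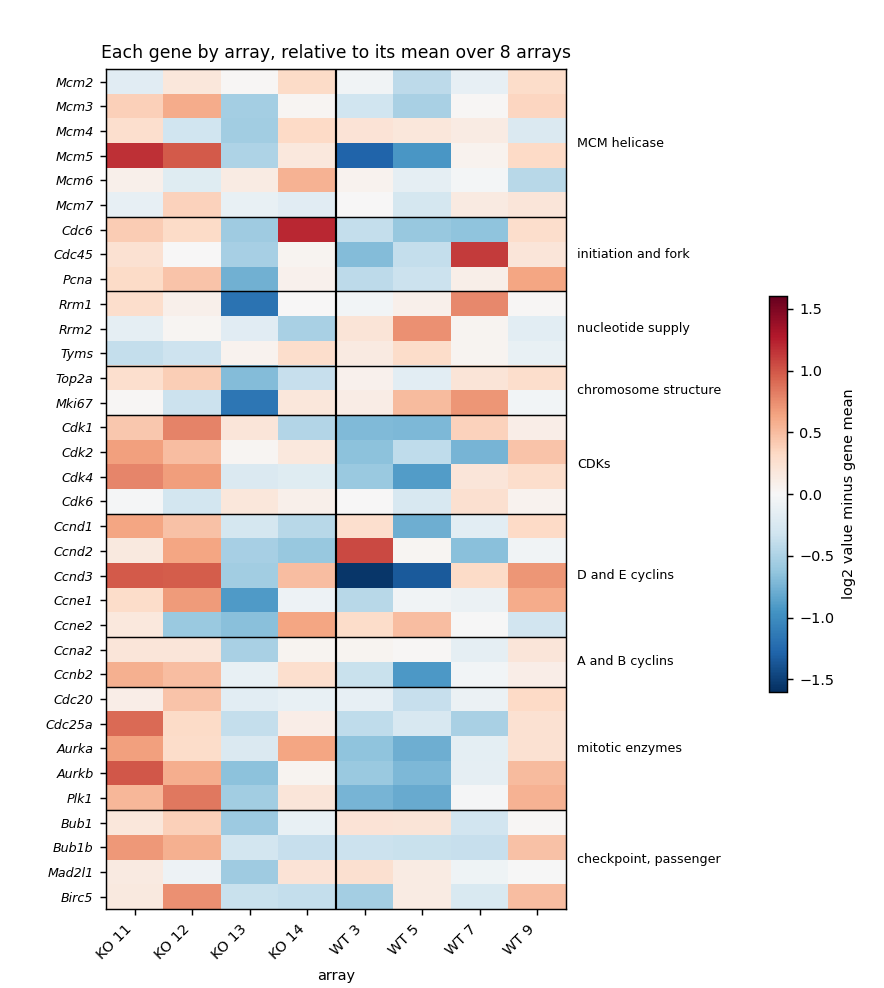
Each of the 34 genes (down) in each array (across), coloured by its log2 value minus the mean of the gene over 8 arrays. Knockout arrays stand left of the line and wild-type arrays right of it. Knockout array 13 and wild-type arrays 3 and 5 are mostly blue, knockout arrays 11 and 12 and wild-type array 9 mostly red, so the colours cross the line between the groups.

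Among the CDKs, Cdk2, the partner of cyclins E and A in S phase, had the smallest p of all 34 genes. Its values were 6.72, 6.55, 6.09 and 6.23 in the arrays labelled knockout, against 5.41, 5.65, 5.32 and 6.51 in wild type. Only wild-type array 9 lay within the range of the arrays labelled knockout. The means were 6.40 ± 0.29 and 5.72 ± 0.55 (SD, n = 4 each), a 1.598-fold ratio (log2 difference 0.68, SE 0.27, limma adjusted p = 0.905, exact permutation p = 0.0857, where 0.0286 is the smallest possible). Without wild-type array 9 the difference was 0.94, and without wild-type arrays 3 and 5 it was 0.48.

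Cdk1, the kinase of mitosis, differed by 0.48 (SE 0.33) and Cdk4, the partner of D-type cyclins, by 0.51 (SE 0.34). In both, wild-type arrays 3 and 5 were the lowest 2 of all 8. With them left out, which must shrink a positive difference, Cdk4 differed by 0.02 and Cdk1 by 0.01. Over the 16 alternative fits described at the end, Cdk4 ran from 0.02 to 0.98 and Cdk1 from 0.01 to 0.85. Cdk6, the other partner of D-type cyclins, measured 3.74, 3.46, 3.94 and 3.84 against 3.77, 3.504, 4.01 and 3.81, near the low end of all genes at percentile 11.9.

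By their brightest probe sets, the D-type cyclins did not share a pattern. Ccnd3 was at 9.24, 9.22, 7.701 and 8.75 in the arrays labelled knockout and 6.70, 6.91, 8.56 and 8.96 in wild type. Its range over the 8 arrays, 2.54, was the widest of the 34 genes, running from wild-type array 3 to knockout array 11. Wild-type arrays 3 and 5 were the lowest 2 of all 8, and wild-type arrays 7 and 9 lay above knockout array 13. The difference was 0.95 (SE 0.56, limma adjusted p = 0.905), and -0.03 without wild-type arrays 3 and 5. Over the alternative fits it ran from -0.03 to 1.45. Ccnd2 measured 7.93, 8.41, 7.25 and 7.17 against 8.84, 7.81, 7.11 and 7.72, with its highest value in wild-type array 3, where Ccnd3 had its lowest. Ccnd1 measured 8.49, 8.32, 7.57 and 7.42 against 8.12, 7.07, 7.68 and 8.18. Differences were -0.18 (SE 0.39) for Ccnd2 and 0.19 (SE 0.32) for Ccnd1. The dimmer probe sets of Ccnd1 had negative differences, of -0.04 (SE 0.15) and -0.38 (SE 0.27).

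The E-type cyclins activate Cdk2 at the start of replication. Ccne1 was at 7.72, 8.10, 6.53 and 7.34 in the arrays labelled knockout and 6.99, 7.37, 7.34 and 8.03 in wild type. Ccne2 was at 9.53, 8.77, 8.70 and 9.99 against 9.65, 9.86, 9.35 and 9.05. Knockout array 13 was the lowest for both, and the highest arrays were both labelled knockout, array 12 for Ccne1 and array 14 for Ccne2. The differences were -0.01 (SE 0.34) and -0.23 (SE 0.31).

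Ccnb2, a B-type cyclin of mitosis, measured 8.57, 8.49, 7.89 and 8.27 in the arrays labelled knockout and 7.64, 7.09, 7.96 and 8.10 in wild type. Knockout array 13 was the only one below wild-type arrays 7 and 9. The means were 8.30 ± 0.30 and 7.699 ± 0.45 (SD, n = 4 each), a 1.52-fold ratio (log2 difference 0.61, SE 0.25, limma adjusted p = 0.905, exact permutation p = 0.0857). Without wild-type arrays 3 and 5 the log2 difference was 0.27, and over the alternative fits it ran from 0.27 to 0.83. Ccna2, the A-type cyclin, averaged 9.51 ± 0.34 and 9.56 ± 0.14.

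With every array in the fit, the 5 mitotic enzymes and activators all had a positive difference, with a median of 0.47. Plk1 and Cdc20 did not keep that sign without wild-type arrays 3 and 5. Aurka, the kinase of the spindle poles, measured 7.95, 7.58, 7.06 and 7.93 in the arrays labelled knockout, against 6.65, 6.51, 7.13 and 7.53 in wild type. Knockout array 13 lay among the wild-type values, and the other 3 lay above them all. The means were 7.63 ± 0.42 and 6.96 ± 0.47 (SD, n = 4 each), a 1.59-fold ratio (log2 difference 0.67, SE 0.28, limma adjusted p = 0.905, exact permutation p = 0.114). Without wild-type arrays 3 and 5 the log2 difference was 0.30, and over the alternative fits it ran from 0.30 to 0.87.

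Aurkb, the kinase of the chromosomal passenger complex, Plk1, the polo kinase of mitotic entry, and Cdc25a, the phosphatase that activates CDKs, differed by 0.47 (SE 0.38), 0.51 (SE 0.37) and 0.47 (SE 0.28). Knockout array 13 and wild-type arrays 3 and 5 were the lowest 3 of all 8 in Aurkb and in Plk1. Cdc20 turns on the complex that ends metaphase. Its brightest probe set measured 10.94, 11.29, 10.67 and 10.72 in the arrays labelled knockout and 10.71, 10.48, 10.75 and 11.16 in wild type. The difference was 0.14 (SE 0.20). The dimmer probe sets of Cdc20 differed by 0.68 (SE 0.30) and 0.21 (SE 0.21). Without wild-type arrays 3 and 5 the differences were 0.05 for Aurkb, -0.02 for Plk1 and -0.04 for Cdc20, while Cdc25a stayed positive.

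Spindle checkpoint and passenger genes showed small differences. Bub1b differed by 0.30 (SE 0.30), Birc5, which encodes survivin of the passenger complex, by 0.08 (SE 0.30), Bub1 by -0.07 (SE 0.22) and Mad2l1 by -0.15 (SE 0.19). In Bub1b the arrays fell into 2 sets that cross the labels. Knockout arrays 11 and 12 and wild-type array 9 were at 8.06, 7.93 and 7.83, and the other 5 lay between 7.002 and 7.07.

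The range over the 8 arrays was above 1 on the log2 scale for 24 of the 34 genes, by their brightest probe sets. The share of all genes with such a range was not computed. The mean deviation of the 34 genes from their own means was 0.35, 0.32, -0.41 and 0.06 across the knockout arrays, against -0.23, -0.28, -0.004 and 0.20 across the wild-type arrays. Knockout array 13 was the lowest of the 8 arrays for 11 of the 34 genes and wild-type array 5 for 10, where all genes had their lowest value there in 14.3% and 11.4% of cases. Knockout arrays 11 and 12 were the highest for 11 and 9 of the 34, against 11.6% and 14.5% of all genes.

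Array-wide brightness and markers of red cells and of other cells also differed between arrays. Of the 34 genes, 31 lay at or above the median level, and the 6197 genes at or above it deviated by 0.15, 0.18, -0.06 and -0.15 across the knockout arrays, against -0.10, -0.06, -0.02 and 0.07 across wild type. After quantile normalization, which set those 6197 genes to between -0.04 and 0.02 in every array, the 34 genes still deviated by 0.21, 0.19, -0.33 and 0.18 in the arrays labelled knockout and -0.16, -0.26, 0.02 and 0.16 in wild type. The 9 red cell markers deviated by 0.34, -0.07, -0.82 and 0.51 against -0.49, -0.24, 0.34 and 0.43 in the deposited values, and so had their 3 lowest means in knockout 13, wild type 3 and wild type 5. Knockout array 13, lowest for the 34 genes, had the highest mean deviation of the 8 arrays for visceral endoderm markers (0.82) and macrophage markers (0.36), and a high one for mesenchyme markers (0.57). Knockout array 14 was lowest for visceral endoderm markers (-2.09) and mesenchyme markers (-0.98). Wild-type arrays 3 and 5 were at -0.09 and 0.25 for visceral endoderm markers and at -0.59 and -0.26 for mesenchyme markers. The part of brightness and of these cells in the result was not tested.

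**Figure D3:**
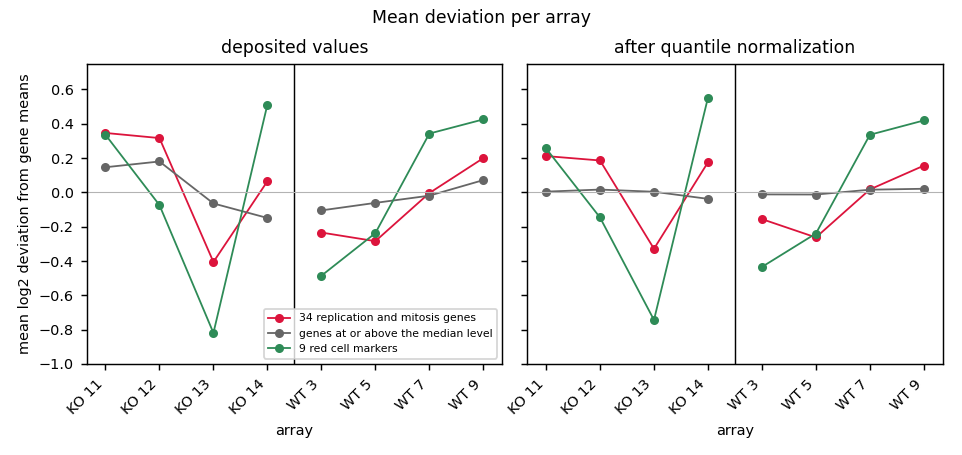
Mean log2 deviation per array of the 34 genes, of all genes at or above the median level and of 9 red cell markers, in the deposited values (left) and after quantile normalization (right), knockout arrays left of each line; lines only join points. The 34 genes reach their lowest mean in knockout array 13 in both panels, -0.41 and -0.33.

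Many of the genes varied together from array to array. Over the 8 arrays the mean Pearson r between pairs of the 34 genes was 0.26 (561 pairs), against 0.01 for all genes and 0.06 for genes at or above the median level. It was 0.19 after quantile normalization, and 0.16 without knockout array 13. These values describe genes that share the same 8 arrays and their brightness, and carry no test. With the mean of the other 33 genes, 15 genes correlated at 0.7 or more. These were led by Mcm3 (0.98), Aurkb (0.97), Plk1 (0.94) and Pcna (0.93). Closest pairs were Mcm3 with Plk1 (r = 0.97), Mcm5 with Ccnd3 (0.97) and Ccnd3 with Plk1 (0.96), which join a helicase subunit, a D-type cyclin and a mitotic kinase.

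By their brightest probe sets, a few genes stood outside this pattern. Ccne2 (-0.14), Mcm6 (-0.22), Cdk6 (-0.25), Rrm2 (-0.43) and Tyms (-0.76) had a negative r with the other genes, and Mki67 (0.11), Mcm4 (0.10) and Ccnd2 (0.07) were near 0. Mcm4 and Ccne2 followed each other (r = 0.93), both with their lowest value in knockout array 13 and their highest in knockout array 14. Cdk6 and Tyms were the 2 dimmest of the 34. Other probe sets of these genes could differ. With Mcm5, r was 0.95 for the second Mcm6 probe set, against -0.09 for the brightest. For Rrm2 it was -0.04 and 0.54 for the dimmer probe sets, against -0.52 for the brightest.

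**Figure D4:**
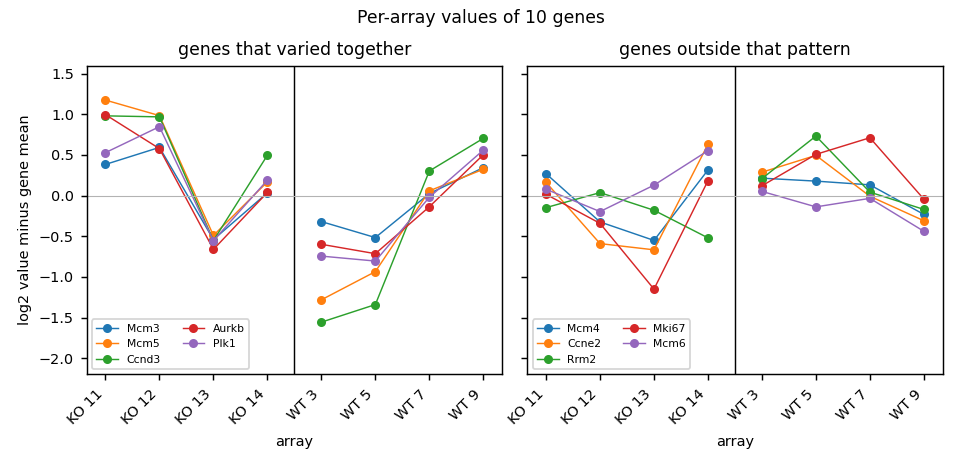
Log2 value minus the mean of the gene over 8 arrays, each gene by its brightest probe set. The left panel shows genes that varied together (Mcm3, Mcm5, Ccnd3, Aurkb and Plk1). The right panel shows genes whose brightest probe set lay outside that pattern (Mcm4, Ccne2, Rrm2, Mki67 and Mcm6). Knockout arrays stand left of each line, and lines only join points of 1 gene. In the left panel all 5 genes are low in knockout 13, wild type 3 and wild type 5.

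Several probe sets of the same gene did not always give the same difference. Of the 17 genes with more than 1 probe set, 6 had positive differences in all of them, 4 negative in all and 7 both signs. Mcm7 had the widest spread, 1.42. Its 3 brighter probe sets differed by -0.03, 0.11 and -0.02, and that of order 4 by 1.40 (SE 0.51). That probe set was at 8.10, 8.12, 7.21 and 7.33 in the arrays labelled knockout and 4.99, 5.79, 6.93 and 7.46 in wild type, so wild-type array 9 overlapped. It had an unadjusted limma p of 0.0228 and an adjusted one of 0.860 over all 22626 probe sets. In the authors' deposited table it was the one probe set of the 66 with a q under 0.05, at an S-score of 4.68 and a q of 0.0012, where 0.968% of all probe sets reached that limit (0.504% with a positive and 0.464% with a negative score). The direction of the S-score is not stated in the file, and was taken as positive for higher in knockout because it correlated with the log2 difference (r = 0.80 across probe sets). None of the 34 probe sets that represent a gene had a q under 0.05 in the authors' deposited table.

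Ccnd2 had 7 probe sets, 6 with a negative difference. The probe set of order 5 by brightness measured 5.01, 4.65, 5.03 and 4.82 in the arrays labelled knockout and 6.55, 5.27, 6.11 and 5.71 in wild type. That of order 6 was dim, near the level of Tyms and Cdk6, at 3.72, 3.40, 3.47 and 3.47 against 4.13, 4.21, 4.27 and 4.16. In both the groups did not overlap, with every array labelled knockout below every wild-type array. Differences were -1.04 (SE 0.25) and -0.68 (SE 0.12), at an unadjusted limma p of 0.0029 and 0.00027. Over all probe sets the adjusted limma p was 0.860 for either. The brightest probe set of Ccnd2 differed by -0.18. The second probe set of Rrm1 did not overlap either, at 5.56, 5.53, 5.97 and 5.93 against 5.34, 5.47, 5.42 and 5.38. Its difference was 0.35, against -0.41 for the brighter one. These 3 are 3 of 66 probe sets, where 2.99% of all probe sets had groups that did not overlap, and they were singled out after their values were seen.

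**Figure D5:**
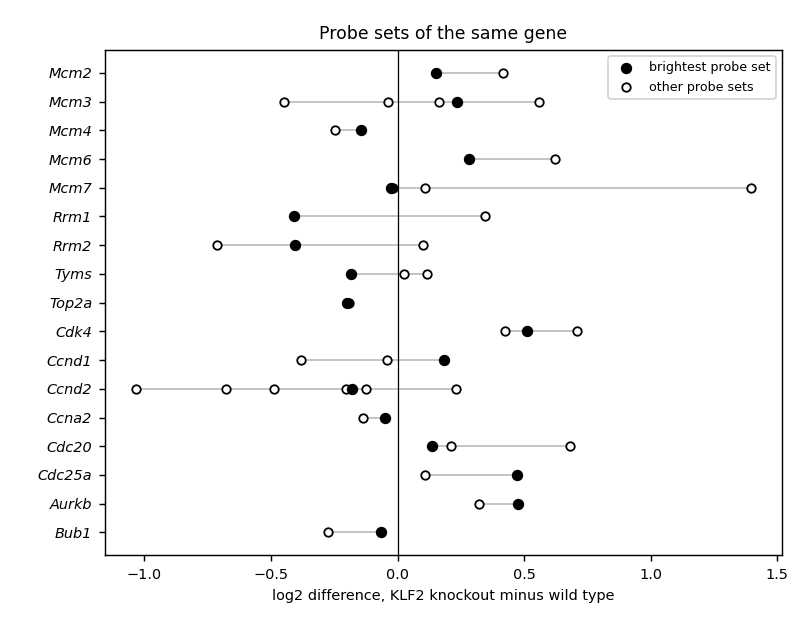
Log2 difference, knockout minus wild type, of every probe set of the 17 genes that had more than 1, with the brightest filled and the others open. The filled and open points of Mcm7 lie up to 1.42 apart, those of Ccnd2 fall on both sides of 0, and those of Cdk4 all lie to the right of 0.

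Other genes of the same processes gave no call either. Of 42 further replication genes 37 were measured, 15 with a positive and 22 with a negative difference, a median of -0.05 and 0 at an unadjusted p under 0.05. The 3 of smallest p were Chaf1b of chromatin assembly (0.45, SE 0.21), Rpa3 of the single-strand binding protein (-0.52, SE 0.25) and Rfc2 of the clamp loader (0.37, SE 0.17). Of 35 further mitosis genes 32 were measured, 15 positive and 17 negative, with a median of -0.04 and 3 at an unadjusted p under 0.05, where 4.8% of all genes reached it. These were the condensin subunits Ncapd2 (1.05, SE 0.44) and Ncapg (-0.71, SE 0.30), which went opposite ways, and the checkpoint gene Bub3 (0.31, SE 0.13). Bub3 was the one of the 32 whose groups did not overlap, against 2.61% of all genes, at 10.99, 11.01, 10.77 and 11.01 in the arrays labelled knockout and 10.72, 10.63, 10.44 and 10.75 in wild type.

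Of 16 transcription factors that act on such promoters 12 were measured, with a median difference of 0.09. Lin9, a subunit of the complex that binds the CHR, was at 5.97 ± 0.33 against 6.67 ± 0.51 (SD, n = 4 each), a difference of -0.71 (SE 0.27). Foxm1, an activator of mitosis genes, was at 6.27 ± 0.14 against 5.92 ± 0.19, and Mybl2, a partner of Lin9, at 6.87 ± 0.37 against 6.36 ± 0.31. These 3 of the 12 had an unadjusted p under 0.05, where 4.8% of all genes did, and overlapping groups, and all had an adjusted p of 0.905 by limma.

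How many of the 34 genes reached an unadjusted p under 0.05 depended on the arrays used. The count was 8 (23.5% of the 34) without knockout array 13, where 5.43% of all genes reached it, and 8 without wild-type array 9, where 8.33% did. It was 0 without knockout array 12, without wild-type array 3 and without wild-type array 5, where 4.02%, 2.36% and 2.47% of all genes reached it. Without wild-type arrays 3 and 5 it was 0, with 1.45% of all genes. Without knockout arrays 13 and 14 it was 13, with 13.4% of all genes, and 12 of the 13 were higher in the arrays labelled knockout. No gene of the 34 had an adjusted p under 0.05 in any of these fits, the lowest being 0.346.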

How the data were processed

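Expression was measured on 8 Affymetrix arrays, 4 labelled KLF2 knockout and 4 wild type. The authors deposited normalised log2 values per probe set, and the submitters' processing notes name GCOS, RMA and affy without version or order. The authors made and deposited for every probe set an S-score, a signed score for the difference between groups, plus its p-value and its q-value, by a calculation the submitters' notes do not explain. The platform annotation gave 20380 of 22626 probe sets 1 symbol, 691 several and 1555 none, and 20351 matched the GRCm38.p6 gene table.

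Values were used as deposited. The test was limma 3.58.1, run in R 4.3.3 (lmFit, eBayes, Benjamini-Hochberg over all 12393 genes, threshold 0.05), with no batch or block, since the labels give none. The fit was run on simulated data with noise drawn independently for each gene. Differences shared across an array were not part of it, so it cannot show how the fit handles them. An exact permutation test, two-sided, served for single values. The number of arrays limits the precision. The genes, lists, naming rule and alternatives were chosen with earlier results of these data known. The rule gave values in every array for genes of unadjusted p under 0.05, the 3 brightest and 3 dimmest, the 3 of widest range, the MCM genes and the D and E cyclins, and named 3 genes of smallest p per further list.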

Additional observations from a re-analysis of the deposited data

Results flagged for a closer look

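In 3 of 68 groups of 4 arrays (34 genes in either group) 1 array lay far from the other 3, by the ratio of its gap to the range of the group. Chance alone flags about 1 in 20 such groups, or 3.4 of 68. Mcm7 was at 10.93 in knockout array 12 and between 10.38 and 10.44 in the others (ratio 0.895). Rrm1 was at 9.91 in wild-type array 7 and between 9.10 and 9.22 in the other wild-type arrays (ratio 0.853). Bub1b was at 7.83 in wild-type array 9 and between 7.002 and 7.03 in the others (ratio 0.971). The causes were not tested.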

How the results depend on the processing

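In the 16 alternative fits 0 of the genes in the group and 0 of all genes passed, with 34 of the group in 15 fits and 32 in the fit without dim probe sets, which left out Tyms and Cdk6. None of the 34 passed a q of 0.05 in the authors' deposited table. The median difference of the 34 genes was 0.11 as reported, 0.01 to 0.25 with 1 array left out, and 0.37 without knockout arrays 13 and 14 and -0.02 without wild-type arrays 3 and 5, the one negative value. Of the 34 differences, 15 kept their sign in every fit that held the gene and 19 changed it in at least 1. The count at an unadjusted p under 0.05 was 3 as reported, 0 with arrays centred on their medians, 13 with array weights, 0 to 8 with 1 array left out, 0 without wild-type arrays 3 and 5 and 13 without knockout arrays 13 and 14. In the same order 4.8%, 4.66%, 11.9%, 2.36% to 8.33%, 1.45% and 13.4% of all genes reached that limit. The count with groups that do not overlap was 0 as reported, 0 to 3 with 1 array left out and 15 (14 higher) without knockout arrays 13 and 14. Of all genes, 2.61%, 3.45% to 7.67% and 27.1% did not overlap in the same order. Array weights gave knockout arrays 13 and 14 the lowest weights (0.51 and 0.37), and 11.9% of all genes then reached the unadjusted limit. The causes were not tested. The exact test cannot go below 0.0286 with 4 arrays per group. No paired analysis was possible because the groups share no replicate number.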

Other observations

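For Mcm2, Mcm3, Mcm4, Mcm6 and Mcm7 a dimmer probe set had a higher correlation with Mcm5 over the 8 arrays than the brightest one had. Pearson's r with Mcm5 was 0.88 for the second probe set of Mcm2, 0.95 for that of Mcm6 and 0.94 for the Mcm7 probe set of order 4. The brightest probe sets of Mcm2, Mcm6 and Mcm7 had r of 0.36, -0.09 and 0.43, and those of Mcm3 and Mcm4 had 0.89 and -0.10. The other dimmer probe sets of the helicase genes ran from -0.55 to 0.97, both of Mcm3 (order 4 and 3), with -0.46 for Mcm7 of order 2 and 0.38 for Mcm4 of order 2. The second Mcm2 probe set was at 8.69, 8.67, 7.51 and 7.86 in the arrays labelled knockout and 6.87, 6.70, 8.79 and 8.69 in wild type, a range of 2.09, against 0.72 for the brightest. The second Mcm6 probe set was at 9.63, 9.47, 8.69 and 9.19 against 8.35, 8.03, 8.81 and 9.30. These probe sets of Mcm2 and Mcm6, and the Mcm7 probe set of order 4, had their lowest values in wild-type arrays 3 and 5, as Mcm5 had. The comparison was made after the values were seen, the r describe probe sets that share the same arrays, and the positions of the probe sets on the transcripts were not used here.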
